A study of Mus musculus with 43 samples.

Results

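High-fat feeding was compared with a standard diet in the epididymal white fat of male mice, the visceral fat pad beside the epididymis. The comparison uses 16 of the 43 RNA-seq libraries of the series, chosen by their diet group: 10 from mice on a high-fat diet (HFD; 60% fat, 20% protein and 20% carbohydrate) and 6 of the 7 from mice on a standard diet (SD; 10% fat, 20% protein and 70% carbohydrate). Neither group received Ramulus Mori (Sangzhi) alkaloids, the mulberry twig extract that the 3 other groups of the series were given on top of HFD. SD library 4 was left out because it held RNA of ciliated epithelium. The labels used here do not state strain, age or length of feeding. The libraries are labelled as replicate biosamples with no animal named, so p-values measure only the spread between these libraries, which may be technical. Adipocyte markers (20 genes, among them Adipoq and Plin1) summed to 72920 to 103493 CPM in SD and 26793 to 117932 CPM in HFD, so the defining genes of the labelled tissue were abundant in every library. The 20 macrophage markers summed to 693 to 1412 CPM in SD and 1266 to 15778 CPM in HFD, and what part such shifts in cell makeup have in the gene groups below was not tested.

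Fat pads that take up surplus energy grow by filling adipocytes with triglyceride and by making new ones from progenitors. Adipocytes release leptin in proportion to their lipid store, and insulin drives them to take up glucose and to hold back lipolysis. In the obese epididymal pad of male mice, adipocytes die and macrophages gather around them in crown-like structures, where they take up and digest the released lipid in their lysosomes. Adgre1 encodes the macrophage surface protein F4/80, Lep encodes leptin, and Ppargc1a encodes PGC-1alpha, a coactivator of mitochondrial and thermogenic genes. Their levels in each library are shown in the plot of single genes.

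Library totals were 34740075 to 38216822 counts in SD and 36589608 to 44259619 counts in HFD. Levels are counts per 1000000 (CPM), scaled with TMM factors, and differences are log2 fold changes, HFD minus SD, ± standard error. A gene was called higher or lower at a Benjamini-Hochberg adjusted p under 0.05 in edgeR's quasi-likelihood test over all 18322 genes tested. Of these, 3975 were higher on HFD (21.7%) and 2722 were lower (14.9%). At least a 2-fold difference was fitted for 2174 of the higher and 979 of the lower genes, and the median over all genes tested was 0.0020. Scaled with upper-quartile factors instead, which moved the median of all genes by -0.10, 3356 genes were higher and 3413 lower, so that the higher genes made up 49.6% of the calls in place of 59.4%. All 10 HFD libraries lay above all 6 SD libraries for 541 of the genes called higher (2.95% of those tested) and below them for 457 called lower (2.49%). Fewer cells of a type and less RNA per cell cannot be told apart in these bulk samples.

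HFD library 8 stood apart from the other HFD libraries, and HFD libraries 9 and 10 lay closer to SD than HFD libraries 1 to 7. The count of calls was 4516 higher and 3689 lower without HFD library 8. The libraries also fell into 2 sets by how many of their counts fell on genes of small noncoding RNAs, a division the labels do not mention. Set 1 held SD 1 and 2 and HFD 1 to 5 (0.00319% to 0.00642% of counts), and set 2 held SD 3, 5, 6 and 7 and HFD 6 to 10 (0.00992% to 0.0165%). The sets differed widely. In a fit with diet and set, 3738 genes were higher and 3336 lower in set 2 than in set 1. The main fit has no term for set. With that term, 4468 genes were higher and 3457 lower on HFD. Within set 1 alone, 4290 genes were higher and 3832 lower. Within set 2 alone, which holds HFD 8 to 10, 937 were higher and 627 lower. Whether the response to diet differed between sets was tested as an interaction in edgeR, which called 0 genes, with a lowest adjusted p of 0.283 and 2041 at an unadjusted p under 0.05, against 916.1 if p-values were uniform. The absence of calls does not show that the sets responded alike. The calls without HFD library 8 and in set 2 alone are given beside the counts of the main groups, higher before lower, and any other library whose omission (1 at a time) moved a count of at least 3 genes by over 1.5 times is named there.

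Lep rose on HFD. Its levels in the SD libraries were 324, 478 and 796 CPM (lowest, median and highest) and in the HFD libraries 718, 1715 and 2749.7 CPM, a difference of 1.78 ± 0.27 or 3.44-fold (adjusted p = 3.02e-04). The groups overlapped only through HFD library 8, at 718 CPM, which lay below SD library 1. The difference was 1.74 within set 1 and 1.56 within set 2. Of 19 adipokine and secreted factor genes tested, 5 rose and 3 fell, against 21.7% and 14.9% of all genes (without HFD library 8, 5 and 8, in set 2 alone, 4 and 0). Saa3, an acute-phase serum amyloid A protein, rose by 4.84 with no overlap of the groups (SD 0.148 to 2.23 CPM, HFD 2.51 to 55.1 CPM). Metrnl, which encodes the secreted protein meteorin-like, rose by 3.03 (SD 11.1 to 23.5 CPM, HFD 16.9 to 228 CPM). Vegfa, the main endothelial growth factor, fell by 1.71 and Nrg4, a neuregulin released by fat, by 1.61 (adjusted p = 0.0124 and 0.0195). HFD library 8 was within the SD range for both, at 528 CPM of Vegfa and 148 CPM of Nrg4. Adipoq, the gene of adiponectin, missed the threshold at -0.71 ± 0.33 (adjusted p = 0.103), with 2417, 2723 and 4020.1 CPM in SD and 748, 1506 and 4607 CPM in HFD. The lowest HFD values of Adipoq were those of libraries 1 to 7, and HFD library 8 was above every SD library. Without that library Adipoq was called lower (-0.97, adjusted p = 0.00822).

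**Figure D1:**
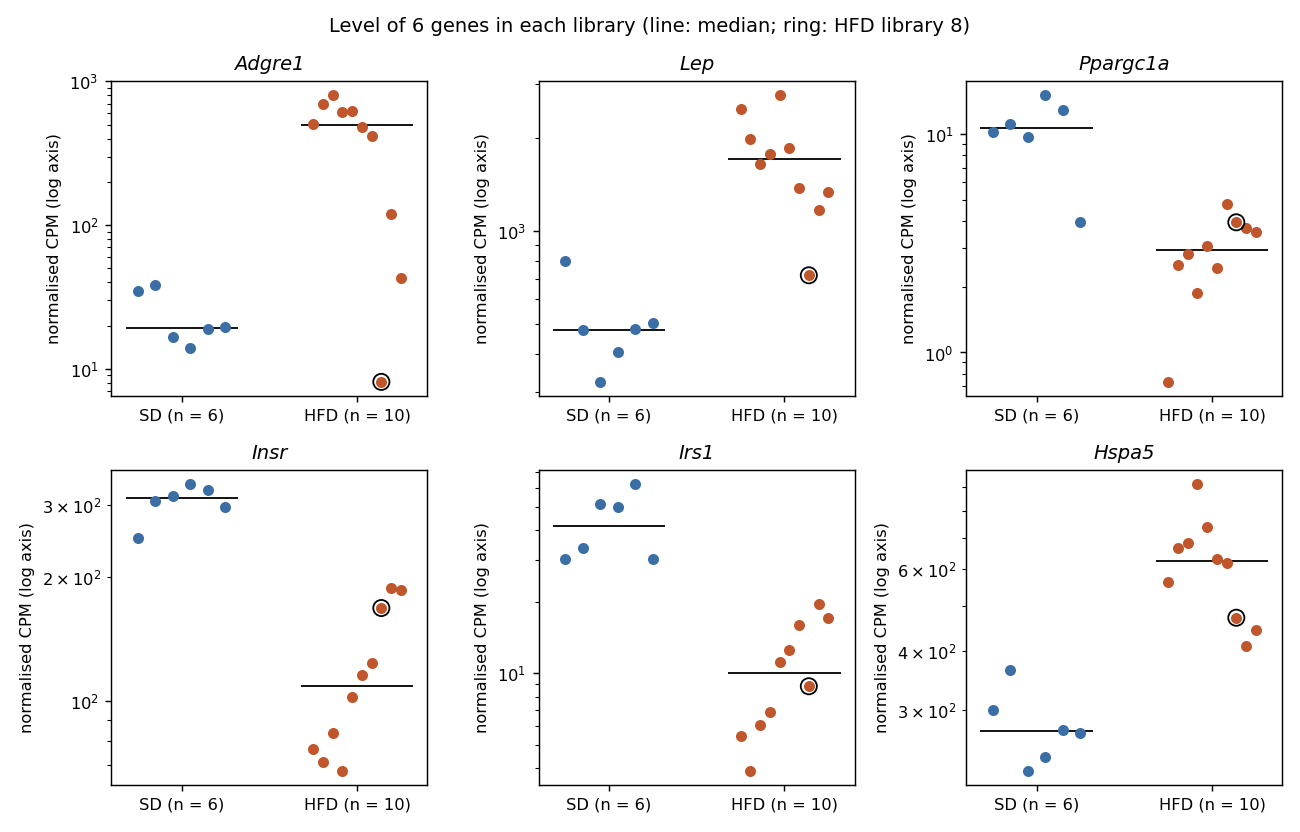
Normalised CPM (log axis) of Adgre1, Lep, Ppargc1a, Insr, Irs1 and Hspa5 in each of the 6 SD and 10 HFD libraries; points are libraries in number order, lines are medians and the ring marks HFD library 8. HFD library 8 lies with or below SD for Adgre1 (8.11 CPM) and apart from every SD library for Insr, Irs1 and Hspa5.

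Genes of insulin signalling and glucose uptake mostly fell. Of 24 tested, 14 fell and 5 rose, with a median of -0.47, and 7 lay below the SD range in all 10 HFD libraries, against 2.49% of all genes. Insr, the insulin receptor, had 249, 311 and 337 CPM in SD and 67.7, 109 and 188 CPM in HFD (-1.37 ± 0.22, adjusted p = 3.66e-04). Irs1, the docking protein that the receptor phosphorylates, had 30.1, 41.7 and 62.3 CPM in SD and 3.91, 10.0 and 19.5 CPM in HFD (-1.99 ± 0.30, adjusted p = 3.00e-04). For both genes every HFD library, HFD library 8 included, was lower than every SD library. Irs2 fell by 1.60 and the kinase gene Akt2 by 0.84. Pik3cb, a catalytic subunit of phosphoinositide 3-kinase, and Pdpk1, the kinase that activates Akt, fell by 0.72 and 0.67, each without overlap. Pde3b, the phosphodiesterase through which insulin holds back lipolysis, fell without overlap (SD 585 to 843 CPM, HFD 118 to 452 CPM).

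The genes of the list that rose include antagonists of the pathway, but not only these. In the fit without HFD library 8, the kinase gene Akt1 was called higher (0.62, adjusted p = 0.00228), as were Tbc1d1, Cbl and Foxo3. Enpp1, a membrane protein that inhibits the insulin receptor, rose by 2.76 (SD 1.29 to 2.82 CPM, HFD 2.03 to 21.8 CPM), and Ptpn1, the phosphatase PTP1B, rose by 1.04 (SD 48.0 to 74.0 CPM, HFD 55.9 to 173 CPM). Grb10, another inhibitor of the receptor, instead fell by 1.42 with no overlap. HFD library 8 lay within the SD range for both rises, at 2.03 CPM of Enpp1 and 55.9 CPM of Ptpn1. Slc2a4, the insulin-responsive glucose transporter GLUT4, was not called (-0.36 ± 0.29, adjusted p = 0.357), with 84.2, 114 and 157 CPM in SD and 42.2, 67.6 and 170.4 CPM in HFD. The list counted 6 higher and 15 lower without HFD library 8, and 1 and 4 in set 2 alone.

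Lipolysis genes fell or were not called. Of 20 tested, 6 fell and 0 rose (median -0.65; without HFD library 8, 0 and 12, in set 2 alone, 0 and 0). Pnpla2, the triglyceride lipase ATGL, fell by 1.01 (SD 3299 to 5656 CPM, HFD 1058 to 5642 CPM), and its coactivator Abhd5 by 0.76. Pnpla2 lost its call without SD library 6 (-0.93, adjusted p = 0.0549). Adrb3, the beta-3 receptor of adipocytes, had 388, 1064 and 1137 CPM in SD and 29.8, 60.0 and 1984 CPM in HFD and was not called (-1.26 ± 0.82, adjusted p = 0.236). HFD libraries 1 to 7 had 29.8 to 128 CPM of Adrb3, and HFD library 8, at 1984 CPM, was the highest of all 16. Without it the difference was -2.11 (adjusted p = 0.0253).

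Triglyceride synthesis genes moved in both directions. Of 24 genes of fatty acid uptake and triglyceride synthesis, 5 rose and 6 fell (without HFD library 8, 5 and 12, in set 2 alone, 2 and 0; 3 lower without SD libraries 2 or 6 or HFD libraries 1 or 4). Dgat2, which makes the last step of triglyceride synthesis, had 289.9, 359 and 437 CPM in SD and 640.3, 745 and 1087 CPM in HFD (1.19 ± 0.16, adjusted p = 2.10e-04), without overlap. Fabp5, a fatty acid binding protein of adipocytes and macrophages, also rose without overlap (1.71). Gpam, which makes the first acylation, fell by 1.37, and Pck1, which supplies glycerol 3-phosphate for re-esterification, fell by 1.87 (SD 4963 to 7459.9 CPM, HFD 342 to 5988 CPM). HFD library 8 had 5988 CPM of Pck1, inside the SD range.

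The lipogenesis list did not move as a block. Among 20 genes, 3 rose and 4 fell (without HFD library 8, 4 and 7, in set 2 alone, 3 and 1). Acaca and Acacb, the acetyl-CoA carboxylases, fell by 1.54 and 2.15, the second without overlap. Scd1, the main stearoyl-CoA desaturase of fat, fell by 1.23 (adjusted p = 0.0245; SD 32246 to 69846 CPM, HFD 8556 to 47314 CPM), and its relative Scd2 rose by 2.87 (SD 13.0 to 63.3 CPM, HFD 25.3 to 437 CPM). Scd1 lost its call without SD library 6 (-1.08, adjusted p = 0.0661). Pgd and G6pdx, which make NADPH in the pentose phosphate pathway, rose by 1.19 and 0.72. Fasn, fatty acid synthase, was not called (-0.12, adjusted p = 0.841), and its sign depended on SD library 6, which had 4537 CPM against 443 to 1619 CPM in the other SD libraries. Without SD library 6 the difference of Fasn was 0.62, and within set 1 alone it was 1.55 (adjusted p = 0.00298). Of 11 genes linked to fat pad expansion, 3 rose and 1 fell (without HFD library 8, 4 and 1, in set 2 alone, 1 and 0), with Sfrp5, a secreted Wnt-binding protein, at 1.34 (SD 64.1 to 326 CPM, HFD 233 to 682 CPM). Mest, a marker of expanding adipocytes, was not called (0.59, adjusted p = 0.0618). Mest was called without any of SD libraries 1 and 7 and HFD library 8 (adjusted p = 0.0223 to 0.0419).

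Ppargc1a fell on HFD. SD libraries had 3.94, 10.7 and 15.0 CPM and HFD libraries 0.734, 2.93 and 4.75 CPM (-1.83 ± 0.31, adjusted p = 4.10e-04; -2.29 within set 1 and -1.53 within set 2). SD library 7 was the lowest of its group at 3.94 CPM, below HFD library 7 at 4.75 CPM, and the groups overlapped there. Of 21 thermogenic genes, 4 rose and 4 fell (without HFD library 8, 6 and 7, in set 2 alone, 1 and 2). Ebf2, a transcription factor of beige and brown precursors, fell without overlap (-1.47; SD 39.7 to 59.4 CPM, HFD 10.8 to 24.5 CPM), and Ppara, the fatty acid receptor, fell by 1.58. Dio2, which activates thyroid hormone, was called higher at low levels (SD 0 to 0.229 CPM, HFD 0 to 2.68 CPM), with HFD library 8 at 0. Ucp1, the uncoupling protein of brown fat, stayed at or below 0.878 CPM in every library of both groups and was not called (adjusted p = 0.977).

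Genes that break down branched-chain amino acids in mitochondria fell. Of 24 genes, 13 fell and 0 rose, with a median of -0.68 (without HFD library 8, 0 and 18, in set 2 alone, 0 and 0). Dbt, the core subunit of the branched-chain keto acid dehydrogenase, fell by 1.08 (SD 72.5 to 113 CPM, HFD 26.0 to 73.9 CPM), Ppm1k, the phosphatase that activates this complex, by 1.03, and Acadsb, which oxidises the isoleucine product, by 1.17. The citrate cycle list had 7 of 23 lower (without HFD library 8, 0 and 11, in set 2 alone, 0 and 0; 4 lower without SD library 6), among them Pdha1, a subunit of pyruvate dehydrogenase, without overlap (-0.79; SD 164 to 324 CPM, HFD 90.7 to 161 CPM), and Sdha of complex II (-0.67). Fatty acid oxidation had 4 of 18 lower and 1 higher (without HFD library 8, 2 and 6, in set 2 alone, 0 and 0; 2 lower without SD libraries 1, 2 or 6 or HFD libraries 1 or 4), the latter being Cpt1a, the entry enzyme of long-chain acyl groups (1.32). Peroxisomal genes had 6 of 14 lower (without HFD library 8, 0 and 9, in set 2 alone, 0 and 0), among them Ehhadh of peroxisomal oxidation (-0.96) and the fatty acid transporter gene Abcd2 (-0.76, without overlap).

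Few genes of the respiratory chain were called with all libraries, but many were lower within set 1 alone. Of 27 nuclear genes 1 fell, Ndufs1 of complex I (-0.38), with a list median of -0.099 (4 lower without HFD library 8). In set 1 alone, 16 of the 27 were lower (median -0.45), and in set 2 alone, 0 were. None of the 13 genes of the mitochondrial genome was called with all libraries in edgeR (median -0.57; 1 at an unadjusted p under 0.05, and 7 lower by DESeq2 and 13 by limma voom with quality weights), whereas all 13 were lower without HFD library 8 (median -1.15). Within set 1 alone, 12 of these 13 were lower (median -1.44), and in set 2 alone, 0 were. HFD library 8 had the highest level of this mitochondrial list, a mean log2 CPM of 9.97, against 8.38 to 8.96 in SD and 6.95 to 8.40 in the other 9 HFD libraries.

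Adipogenic transcription factors fell in 8 of 20 cases and rose in 0 (median -0.47; without HFD library 8, 0 and 13, in set 2 alone, 0 and 1; 5 lower without SD libraries 2 or 5 or HFD libraries 1, 4 or 5). Pparg, the master regulator of adipocyte differentiation, fell by 0.74 (adjusted p = 0.0423; SD 201 to 399.9 CPM, HFD 87.8 to 359.9 CPM). Pparg lost its call without any of SD libraries 2, 5, 6 and 7 and HFD libraries 1, 2, 3, 4, 5, 6 and 7 (adjusted p = 0.0521 to 0.115). Ebf1, which acts early in the adipocyte programme, fell without overlap (-1.05; SD 169.5 to 211 CPM, HFD 51.5 to 144 CPM), and Nr2f2, a nuclear receptor of progenitors, fell by 0.95. Markers of mature adipocytes were lower in most HFD libraries. Of 20, 5 fell, and 16 fell without HFD library 8 but 1 in set 2 alone. The count was 3 without any one of SD libraries 5, 6 and 7 and 9 without HFD library 10. The mean log2 CPM of this list was 10.71 to 11.11 in SD, 8.95 to 10.67 in 9 HFD libraries and 11.27 in HFD library 8, above every other library. Acvr1c, the activin receptor ALK7 that restrains lipolysis, was lower in every HFD library than in any SD library (SD 251 to 424 CPM, HFD 23.4 to 165 CPM).

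Because mature adipocyte markers were lower in most HFD libraries, 6 adipocyte genes were also set against these markers in the same library, as log2 CPM minus the mean log2 CPM of the list, and compared with a two-sided exact permutation test over 8008 splits, adjusted over the 6. The members were chosen with their changes known. Lep was higher relative to the markers by 2.90 (SD mean -1.99 ± 0.41, HFD mean 0.90 ± 1.27, SD; adjusted exact p = 0.00262), with 9 of 10 HFD libraries above every SD library. Slc2a4 was higher by 0.69 (adjusted exact p = 0.00262), again with 9 of 10 above every SD library. Irs1 and Adrb3 were lower, with differences of -0.96 and -1.65 (adjusted exact p = 0.0371 for both) and with 8 and 7 of 10 HFD libraries below every SD library. Ppargc1a (-0.69, adjusted exact p = 0.124) and Insr (-0.31, adjusted exact p = 0.167) missed the threshold. The reference list itself differed between the diets, so a ratio shows unequal change and not that either side stayed the same. The call of Irs1 was lost without any of SD libraries 3, 5 and 6 and HFD libraries 1, 2, 3, 4, 5 and 10, and that of Adrb3 without any of SD libraries 3, 5 and 6 and HFD libraries 1 to 6, at adjusted exact p-values of 0.0527 to 0.0864. Without SD library 7 the lower ratio of Ppargc1a passed the threshold (-0.92, adjusted exact p = 0.0485).

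**Figure D2:**
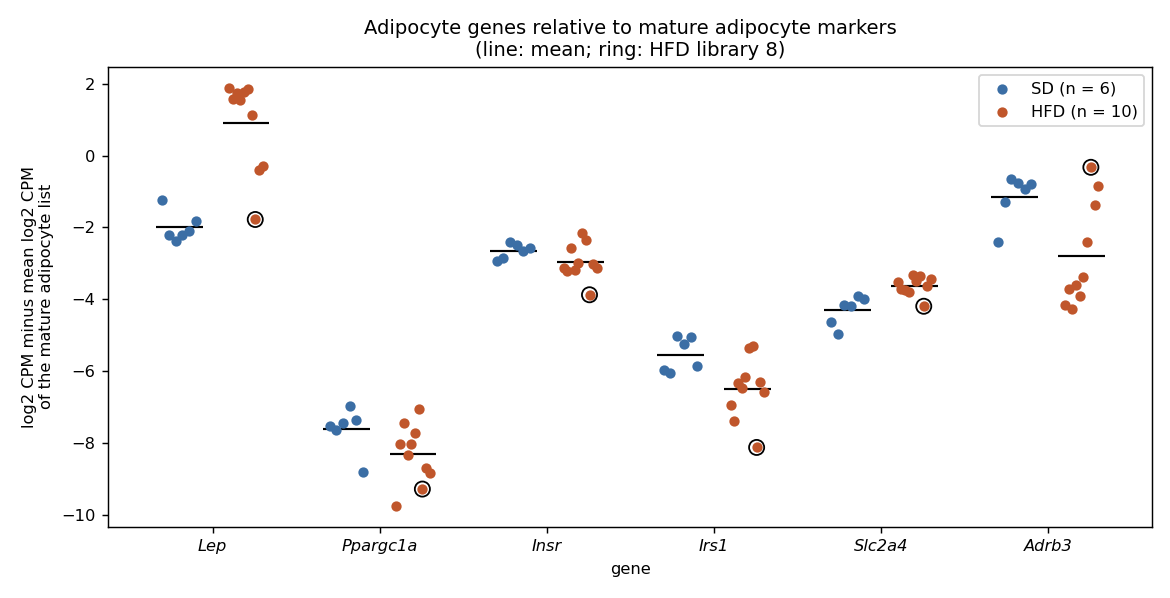
Log2 CPM of 6 adipocyte genes minus the mean log2 CPM of the mature adipocyte list, by library; points are the 6 SD and 10 HFD libraries, lines are group means and the ring marks HFD library 8. Lep and Slc2a4 lie higher on HFD in 9 of 10 libraries each, while HFD library 8 is lowest of its group for Lep (-1.78), Insr (-3.87) and Irs1 (-8.11).

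Chaperone genes of the endoplasmic reticulum rose, and a few genes of the stress response fell. Of 26 genes on the endoplasmic reticulum stress list, 14 rose and 4 fell (median 0.50; without HFD library 8, 17 and 5, in set 2 alone, 9 and 0). In all, 8 members lay above the SD range in all 10 HFD libraries, against 2.95% of all genes. Hspa5, the chaperone BiP, had 222, 269.6 and 365 CPM in SD and 412, 625 and 913 CPM in HFD (1.15 ± 0.18, adjusted p = 3.19e-04). Sdf2l1, which works with BiP, rose by 3.08 (SD 4.17 to 8.72 CPM, HFD 14.3 to 89.8 CPM), the lectin chaperone Calr by 1.44, and Creld2 by 1.16 (adjusted p = 1.04e-04). All 4 were without overlap, and HFD library 8 was above SD for each. The 4 that fell were Asns, asparagine synthetase (-1.64; SD 89.7 to 204 CPM, HFD 22.5 to 102 CPM), Chac1, a glutathione-degrading enzyme (-1.34), Trib3, a pseudokinase induced by ATF4 (-0.72), and Xbp1, a transcription factor of the unfolded protein response (-0.37). Xbp1 lost its call without any of SD libraries 1, 2, 6 and 7 and HFD libraries 1, 3, 4, 5, 6, 7 and 9 (adjusted p = 0.0526 to 0.128). Atf4, the transcription factor that switches on Asns, was not called (-0.25, adjusted p = 0.197), and without HFD library 8 it was called lower (-0.33, adjusted p = 0.0317).

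The promoters of these genes were searched for the endoplasmic reticulum stress element, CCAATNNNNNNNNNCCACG, and for the core of the amino acid response element, TGATGNAA, on both strands of the 250 bases before the start. Both motifs are known from genes of this list. Of the 26 members, 23 were in the RefSeq promoter table (GRCm38.p6), and 12 of these 23 rose and 4 fell. The first motif was found for 7 of them (30.4%), 5 of which rose and 0 of which fell, against 0.13% of all 27025 genes in the table. The second was found for 3 (13.0%), of which Asns and Chac1 fell and 1 was not called, against 3.91% of all genes. Windows of 60 bases, 5′ to 3′ on the gene's strand with matches in capitals, are given for 4 members that rose and for the 2 with the second motif that fell, matches on either strand included. They lie at chr2:34771995-34772054 (+ strand), chr8:84847064-84847123 (- strand), chr15:88819490-88819549 (+ strand), chr12:17266461-17266520 (+ strand), chr6:7693210-7693269 (- strand) and chr2:119351019-119351078 (+ strand), in the order printed.
Hspa5: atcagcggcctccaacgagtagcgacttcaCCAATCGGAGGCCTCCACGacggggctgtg
Calr: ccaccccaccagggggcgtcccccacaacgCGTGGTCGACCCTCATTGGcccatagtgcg
Creld2: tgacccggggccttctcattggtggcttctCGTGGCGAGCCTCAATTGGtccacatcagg
Pdia6: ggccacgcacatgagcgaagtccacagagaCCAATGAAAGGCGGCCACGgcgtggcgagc
Asns: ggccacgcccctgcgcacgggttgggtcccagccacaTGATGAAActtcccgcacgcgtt
Chac1: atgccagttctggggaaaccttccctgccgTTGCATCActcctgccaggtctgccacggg
A match describes the letters in the window, and whether a factor binds there was not measured in these data.

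Cholesterol synthesis genes rose in 14 of 21 cases and fell in 1 (median 0.72; without HFD library 8, 16 and 1, in set 2 alone, 1 and 0). Mvd of the mevalonate pathway rose without overlap (1.29; SD 4.05 to 5.56 CPM, HFD 7.63 to 16.0 CPM). Dhcr7, the last step to cholesterol, rose by 2.05 (SD 4.92 to 7.20 CPM, HFD 4.15 to 36.5 CPM). Fdft1, squalene synthase, fell by 0.84. HFD library 8 had the lowest level of the list, 3.23 against 3.46 to 3.87 in SD and 4.14 to 4.53 in the other HFD libraries (mean log2 CPM). The sterol response element letters TCACNCCAC were in 1 of 13 members in the table (not called) and in 1.22% of all genes.

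Clock genes fell in 11 of 19 cases and rose in 2 (median -0.56; without HFD library 8, 3 and 11, in set 2 alone, 0 and 5). Nr1d1, the repressor REV-ERBalpha, had 138, 152 and 203 CPM in SD and 48.0, 69.6 and 112 CPM in HFD (-1.10 ± 0.18, adjusted p = 3.75e-04). Its opponent Rora fell by 0.79, and Clock by 0.64. These 3 were lower in every HFD library than in every SD library. Bhlhe41 and Bhlhe40, repressors of the clock, rose by 1.51 and 0.73. Bhlhe40 lost its call without SD library 3 (0.63, adjusted p = 0.0570). Per2, a core repressor, was not called (-0.38, adjusted p = 0.482). The labels used here give no time of day of collection, and its part in these values was not tested. Of 12 glucocorticoid response genes, 6 fell and 1 rose (without HFD library 8, 1 and 7, in set 2 alone, 1 and 2). Nr3c1, the glucocorticoid receptor, fell without overlap (-0.63; SD 210.5 to 248 CPM, HFD 107 to 164 CPM), Hsd11b1, which regenerates active glucocorticoid, fell by 1.81, and Tsc22d3 (GILZ), a target of the receptor, rose by 0.67.

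**Figure D3:**
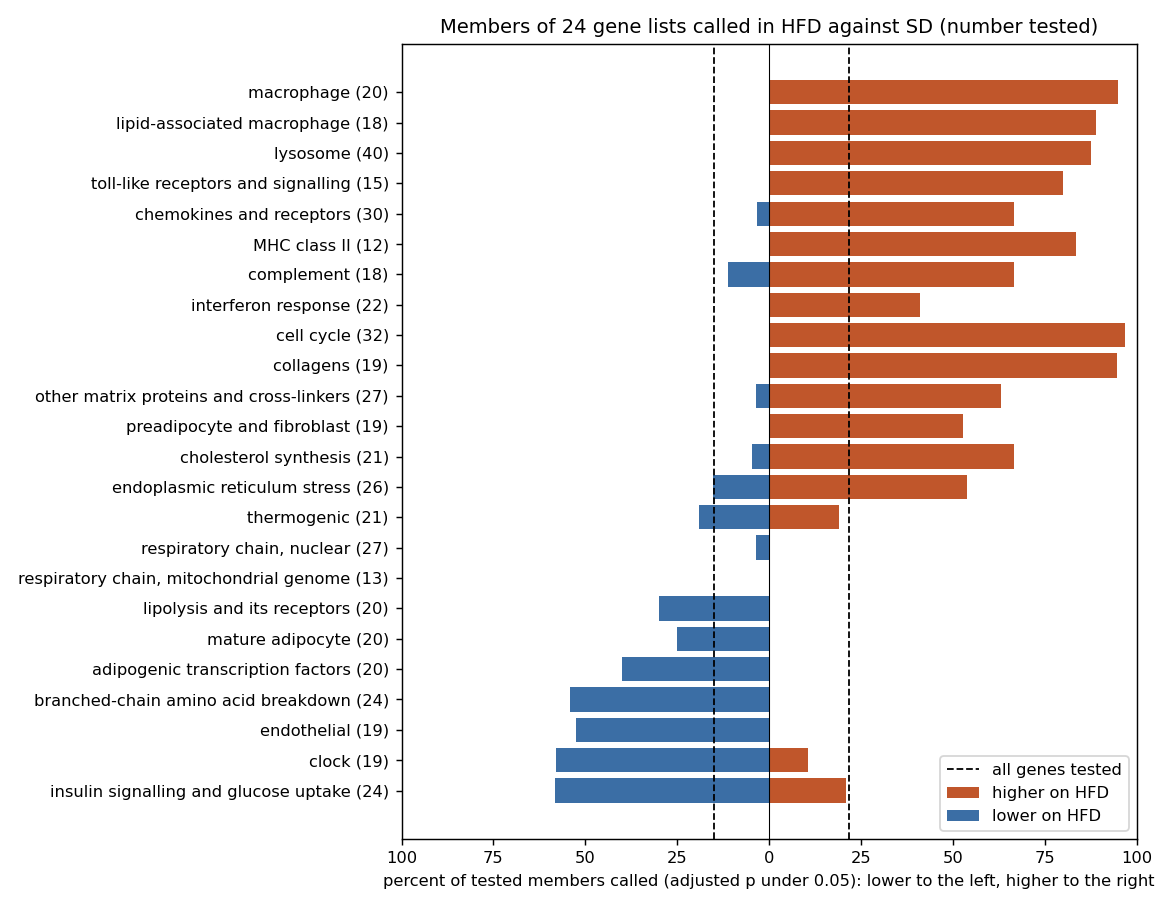
Percent of the tested members of 24 gene lists called lower (left) or higher (right) on HFD at an adjusted p under 0.05, with the number tested in parentheses; dashed lines mark the shares over all genes tested (14.9% lower and 21.7% higher). Macrophage, lysosome, cell cycle and collagen lists reach far to the right, and insulin signalling, clock, endothelial and amino acid breakdown lists reach to the left.

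Macrophage genes rose. Of 20 tested, 19 rose and 0 fell, with a median of 3.09 against 0.0020 over all genes. Adgre1 had 14.1, 19.3 and 38.3 CPM in SD and 8.11, 496 and 799 CPM in HFD (4.18 ± 0.76, 18.1-fold, adjusted p = 6.34e-04; 4.14 within set 1 and 3.60 within set 2, where the adjusted p was 0.0521). HFD libraries 1 to 7 ranged from 418 to 799 CPM, HFD libraries 9 and 10 had 119 and 42.8 CPM, and HFD library 8 had 8.11 CPM, below every SD library. Cd68, a lysosomal membrane protein of macrophages, was higher in all 10 than in any SD library (SD 21.6 to 55.9 CPM, HFD 75.6 to 1019 CPM), and so were Fcer1g, the chain that signals from Fc receptors (2.99), and C1qb of complement (3.06). Counts were 19 of 20 without HFD library 8 and 15 in set 2 alone.

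Genes of lipid-associated macrophages, cells that handle lipid in obese fat, rose in 16 of 18 cases (median 3.40; 16 without HFD library 8 and 11 in set 2 alone). Trem2, the lipid-sensing receptor of these cells, had 2.20, 5.87 and 16.4 CPM in SD and 8.08, 409.8 and 661 CPM in HFD (5.65 ± 0.90, 50.3-fold, adjusted p = 3.44e-04). Itgax (CD11c) had 3.28, 7.59 and 18.2 CPM in SD and 9.14, 464 and 641 CPM in HFD (5.44 ± 0.79, 43.5-fold). HFD library 8 lay within the SD range for both, at 8.08 and 9.14 CPM, and was the only HFD library to do so for either gene. Lgals3, galectin-3, rose by 4.29 (SD 49.2 to 200.0 CPM, HFD 159 to 4319 CPM). Resident macrophage genes rose in 8 of 15 cases (median 0.64; without HFD library 8, 8 and 0, in set 2 alone, 1 and 0). Clec10a, a lectin of resident macrophages, was higher in every HFD library than in any SD library (SD 48.3 to 62.2 CPM, HFD 65.0 to 173 CPM), and Mrc1, the mannose receptor CD206, rose by 2.10. Other members of this list, among them Cd163, Lyve1 and Timd4, were not called even without HFD library 8 (-0.015, 0.16 and -0.54).

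Lysosomal genes rose as a large group. Of 40 tested, 35 rose and 0 fell (median 1.43; 36 without HFD library 8 and 17 in set 2 alone), and 10 lay above the SD range in all 10 HFD libraries. Ctsk and Ctss, cathepsin proteases, rose by 4.68 and 4.31. Glb1, the beta-galactosidase, rose by 1.27, and Lipa, the acid lipase that frees stored lipid, by 3.05. Tfeb and Tfe3, transcription factors that switch on lysosomal genes, rose by 1.40 and 0.67, each without overlap.

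The 7 letters TCACGTG, the core of the element that TFEB binds, were searched in the 250 bases before the start of these genes, on both strands. Of 30 members in the RefSeq table, 25 of which rose, 10 held a match (33.3%), against 3.58% of all 27025 genes. Of these 10, 9 rose. The letters are known from lysosomal genes, and whether TFEB binds the matches was not measured. Windows of 60 bases are given for 4 members that rose, with matches in capitals, at chr8:13159069-13159128 (+ strand), chr2:164833713-164833772 (+ strand), chr9:114400999-114401058 (+ strand) and chr16:44139362-44139421 (- strand) (GRCm38.p6).
Lamp1: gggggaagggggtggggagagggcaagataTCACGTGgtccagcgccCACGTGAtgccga
Ctsa: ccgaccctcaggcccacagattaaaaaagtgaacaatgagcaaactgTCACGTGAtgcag
Glb1: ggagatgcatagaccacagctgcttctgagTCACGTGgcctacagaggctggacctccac
Atp6v1a: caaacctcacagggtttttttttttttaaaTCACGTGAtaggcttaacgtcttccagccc
Lamp1, a membrane protein of the lysosome, Ctsa, a protective carboxypeptidase, Glb1 and Atp6v1a, a subunit of the proton pump, rose by 1.31, 1.92, 1.27 and 1.96 on HFD. In Ctsa and Atp6v1a the palindrome TCACGTGA holds a match on each strand.

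Genes of lipid scavenging and iron handling were called in both directions. Soat1, which esterifies cholesterol for storage, rose by 3.50 (SD 9.44 to 21.7 CPM, HFD 10.3 to 274 CPM), and Msr1, a scavenger receptor, by 3.32, among 8 of 17 called higher and 1 lower (without HFD library 8, 8 and 2, in set 2 alone, 3 and 1). Of 14 iron genes, 7 rose and 5 fell (without HFD library 8, 7 and 6, in set 2 alone, 3 and 1). Ftl1, ferritin light chain, rose by 2.00, Slc11a1, the phagosomal metal transporter, by 3.22, and Hmox1, heme oxygenase, by 2.30. Cp, the ferroxidase ceruloplasmin, was lower in all 10 HFD libraries than in any SD library (-1.53; SD 194 to 281 CPM, HFD 48.9 to 163 CPM), and Trf, transferrin, fell by 0.85. Of 20 antioxidant genes, 5 rose and 4 fell (without HFD library 8, 6 and 5, in set 2 alone, 1 and 1), with Srxn1, sulfiredoxin, at 1.98 and the secreted peroxidase Gpx3 at -1.60.

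Some markers of other leukocytes rose, to be read against 21.7% higher and 14.9% lower over all genes. T cell genes rose in 5 of 16 cases and fell in 0 (median 1.19; without HFD library 8, 6 and 0, in set 2 alone, 1 and 0; 2 higher without SD libraries 2, 3 or 5 or HFD libraries 3, 4 or 7, 3 higher without SD library 7 or HFD library 2). The mean log2 CPM of the T cell list overlapped between the diets. It was -0.20 to 1.03 in SD, 0.42 in HFD library 8 and -0.19 to 3.29 in the other HFD libraries. Il7r, the receptor for interleukin 7, rose by 4.34 (SD 4.24 to 8.70 CPM, HFD 7.17 to 199 CPM). Of 12 B and plasma cell genes, 5 rose and 1 fell (without HFD library 8, 5 and 1, in set 2 alone, 2 and 0), with Cd22, a B cell receptor inhibitor, at 3.61 (SD 0.868 to 2.66 CPM, HFD 0.393 to 61.3 CPM). Irf4, a transcription factor that adipocytes also express, fell by 2.97. The summed level of this list was 214 to 918 CPM in SD and 401 to 3301 CPM in HFD. Mast cell genes rose in 5 of 8 cases and fell in 1 (without HFD library 8, 6 and 1, in set 2 alone, 0 and 0). The higher count was 3 without SD libraries 5 or 7 or HFD library 3. Those that rose include the proteases Cma1 (2.59) and Cpa3 (2.38). Hdc fell (-1.04 without HFD library 8) and lost its call without SD library 6 (-0.79, adjusted p = 0.0752). On the regulatory T cell list Il1rl1, the receptor for interleukin 33, rose by 1.35, and Ikzf2, the transcription factor Helios, fell by 1.22.

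Chemokine and receptor genes rose in 20 of 30 cases and fell in 1 (median 1.39; without HFD library 8, 20 and 2, in set 2 alone, 4 and 0). Ccl2, which draws monocytes, rose by 1.64 (adjusted p = 0.00256; SD 3.38 to 14.9 CPM, HFD 8.22 to 43.3 CPM), and its receptor Ccr2 by 1.42. Ccr1, a receptor of inflammatory chemokines, rose by 2.74. Cxcl12, a stromal chemokine, fell by 0.64, and its receptor Cxcr4 rose by 1.80. Of 20 cytokine and inflammasome genes, 14 rose and 1 fell (without HFD library 8, 14 and 1, in set 2 alone, 4 and 0). Tnf rose by 2.04 (SD 0.110 to 1.10 CPM, HFD 0.303 to 3.16 CPM), Il1rn, the interleukin 1 receptor antagonist, by 5.26, and Casp1, the inflammasome protease, by 2.27 without overlap. Il1b was called lower (-2.20, adjusted p = 0.0370), with 24.7 CPM in SD library 6 and at most 1.87 CPM in any other SD library. Without SD library 6 its difference was -0.061 (adjusted p = 0.948), and its call was also lost without any of HFD libraries 1 to 5 and 9 (adjusted p = 0.0516 to 0.0572). Il6 was not called (-1.19, adjusted p = 0.329).

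Pattern recognition and antigen presentation genes rose as well. Of 15 genes of toll-like receptors and their signalling, 12 rose (median 1.85; without HFD library 8, 12 and 0, in set 2 alone, 3 and 0), among them Tlr13 (4.55) and Tlr1 (4.06). Tlr4, the lipopolysaccharide receptor, was not called (0.47, adjusted p = 0.209). Complement genes rose in 12 of 18 cases (without HFD library 8, 13 and 3, in set 2 alone, 8 and 0), and C2 and C6 fell by 1.24 and 1.30. MHC class II genes rose in 10 of 12 cases (without HFD library 8, 11 and 0, in set 2 alone, 6 and 0), among them H2-DMa (1.83, without overlap), which loads peptides, and Ciita (2.30), the class II transactivator. Interferon response genes rose in 9 of 22 cases with a median of 0.35 (without HFD library 8, 9 and 0, in set 2 alone, 1 and 0). Oas1a, which senses double-stranded RNA, rose without overlap (2.57; SD 3.23 to 4.41 CPM, HFD 8.33 to 36.3 CPM).

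Cell cycle genes rose in 31 of 32 cases (median 1.95; 31 without HFD library 8, but 1 in set 2 alone). Mki67, the proliferation marker Ki-67, had 5.74, 8.56 and 22.5 CPM in SD and 5.45, 73.5 and 93.4 CPM in HFD (2.50 ± 0.50). E2f1, a transcription factor of S phase, rose by 1.24, the helicase subunit gene Mcm6 by 1.95, and Ube2c of mitotic exit by 2.05. The mean log2 CPM of the list in HFD library 8, 1.45, was below the SD range of 1.51 to 2.96, and the other HFD libraries had 2.94 to 4.53. The E2F letters TTTGGCGC were in 2 of 26 members in the promoter table (Mcm5 and Mcm6, both higher, as were 25 of the 26) and in 0.485% of all genes. Among 15 genes of p53 and cell-cycle arrest, 8 rose and 1 fell (without HFD library 8, 9 and 1, in set 2 alone, 3 and 0). Cdkn2a (p16 and ARF) rose without overlap (2.63; SD 0.116 to 0.613 CPM, HFD 0.817 to 4.35 CPM), as did the pro-apoptotic genes Bax (1.11) and Bbc3 (0.93), and Cdkn1a (p21) was not called (-0.23, adjusted p = 0.387).

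Interstitial matrix genes rose, while few basement membrane genes were called. Collagens rose in 18 of 19 cases (median 1.62; 18 without HFD library 8 and 4 in set 2 alone). Col1a1 had 122, 162 and 447 CPM in SD and 144, 1238 and 2218 CPM in HFD (2.42 ± 0.45, adjusted p = 8.05e-04), and HFD library 8 at 144 CPM was the only HFD library within the SD range. Col6a1 and Col6a2, which surround adipocytes with collagen VI, were higher in all 10 HFD libraries than in any SD library (1.89 and 2.00; Col6a2 SD 166 to 322 CPM, HFD 325 to 1296 CPM), as was Col16a1 (2.37). Of 27 other matrix genes, 17 rose and 1 fell (without HFD library 8, 17 and 1, in set 2 alone, 7 and 0). They include the cross-linking enzyme gene Loxl1 (2.09) and Serpinh1, a collagen chaperone (1.23), both without overlap, while Thbs1, thrombospondin 1, fell by 1.24. Matrix proteases rose in 13 of 21 cases and fell in 4 (without HFD library 8, 13 and 5, in set 2 alone, 6 and 0). Mmp3, the protease stromelysin 1, rose without overlap (3.91; SD 0.457 to 2.33 CPM, HFD 3.24 to 38.5 CPM), and the inhibitors moved apart, Timp1 at 3.73 and Timp3 at -1.05. Of 15 basement membrane genes, 1 rose and 2 fell. In TGF-beta, activin and BMP signalling 6 of 25 rose and 6 fell (without HFD library 8, 7 and 7, in set 2 alone, 2 and 2), with Tgfb1 at 1.74 and Gdf3, a ligand of ALK7, called higher (SD 0 to 0.405 CPM, HFD 0.0605 to 25.5 CPM).

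Fibroblast and vascular markers went opposite ways. Preadipocyte and fibroblast genes rose in 10 of 19 cases and fell in 0 (median 0.70; without HFD library 8, 12 and 0, in set 2 alone, 1 and 0), among them the surface protein genes Thy1 (1.52, without overlap) and Cd248 (1.88) and the progenitor marker Pdgfra (1.17). Endothelial genes fell in 10 of 19 cases and rose in 0 (median -0.77; without HFD library 8, 0 and 15, in set 2 alone, 0 and 1; 17 lower without HFD library 10). Kdr, the receptor for Vegfa, was lower in every HFD library than in any SD library (-1.37 ± 0.24, adjusted p = 6.31e-04; SD 289 to 594 CPM, HFD 78.6 to 279 CPM), and Tek, the angiopoietin receptor, fell by 0.69. Smooth muscle and pericyte genes fell in 3 of 12 cases (without HFD library 8, 0 and 5, in set 2 alone, 0 and 1). Erythroid genes, a sign of blood in the sample, were summed at 572 to 1259 CPM in SD and 133 to 1314 CPM in HFD, and 3 of 6 fell (without HFD library 8, 0 and 6, in set 2 alone, 0 and 0). The summed mesothelium list was 98.5 to 245 CPM in SD and 68.7 to 180.2 CPM in HFD, and 1 of 12 genes was called. Epididymis markers summed to 79.0 CPM in SD library 1 and at most 1.84 CPM in HFD. The part of blood and neighbouring tissue in the results was not tested.

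The largest changes among abundant genes were picked from all genes tested, members of the lists above included. They are therefore not all separate from the groups above. Gpr50, a receptor related to the melatonin receptors, went from 0 to 0.114 CPM in SD to 1.21 to 76.4 CPM in HFD, above SD in all 10 libraries (adjusted p = 1.04e-04; the fitted fold rests on a few SD counts and is not given). Tph2, a tryptophan hydroxylase of the serotonin pathway, also rose without overlap (SD 0.110 to 0.693 CPM, HFD 1.18 to 100.2 CPM; 6.70). Mmp12, the macrophage elastase, Gpnmb and Atp6v0d2, a subunit of the proton pump, rose by 6.50, 5.66 and 5.55. Acsm3, a mitochondrial acyl-CoA synthetase, had the largest fitted fall of those with a mean of at least 20 CPM on SD (-4.18 ± 0.76, adjusted p = 6.61e-04), from 26.4 to 80.2 CPM in SD to 0.302 to 13.2 CPM in HFD, without overlap. Cyp2e1, a cytochrome P450, fell by 2.63 (SD 3606 to 7861 CPM, HFD 38.4 to 5345 CPM), and Fam13a by 2.57 (SD 442 to 1217 CPM, HFD 17.2 to 623 CPM), and for both HFD library 8 was within the SD range. Cyp2e1 lost its call without any of SD libraries 2 and 6 and HFD libraries 1, 4 and 5 (adjusted p = 0.0511 to 0.0641). The 3 smallest p-values of all belonged to genes picked out after their values were seen. Dusp4, a phosphatase of MAP kinases, was 42.6 to 52.5 CPM in SD and 14.6 to 24.0 CPM in HFD (-1.35 ± 0.11, adjusted p = 1.29e-05). Kat2b, an acetyltransferase, fell by 1.19 and Gata6, a transcription factor, by 1.31, and HFD library 8 was below every SD library for all 3.

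**Figure D4:**
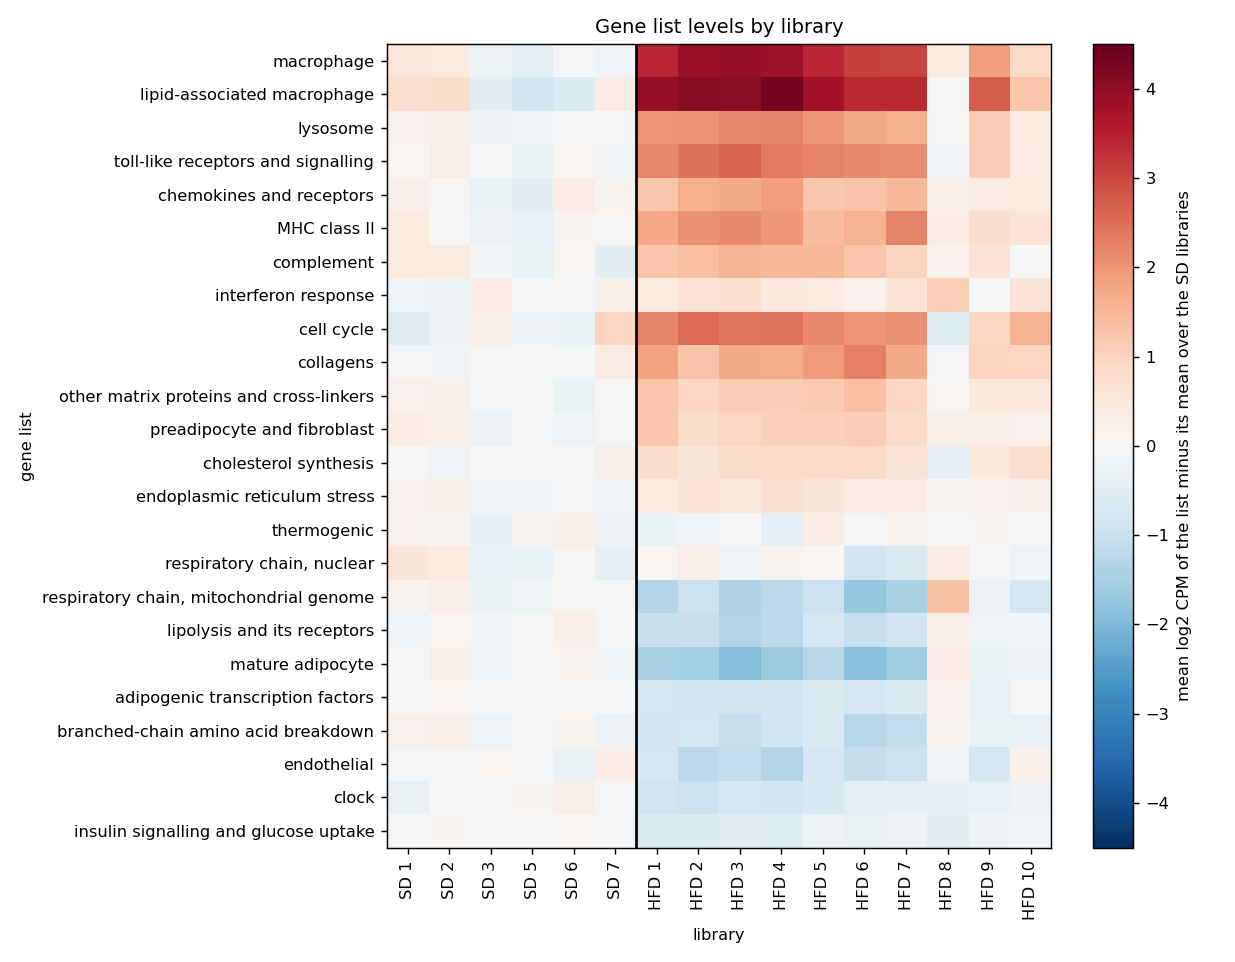
Mean log2 CPM of each of 24 gene lists in each library, minus the mean of the list over the 6 SD libraries; red is higher and blue lower, and the line divides SD from HFD. HFD libraries 1 to 7 look alike, HFD libraries 9 and 10 have paler colours, and HFD library 8 resembles SD for macrophage, cell cycle and collagen lists.

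HFD library 8 was described with genes called in a fit that did not use it. Of 4516 genes called higher in that fit, 29.0% lay above the SD range in HFD library 8 and 18.4% lay below it, and of 3689 called lower, 34.4% lay below the SD range and 15.5% above it. The same shares for each other HFD library, each from a fit without it, ran from 49.9% to 97.5% for higher genes and from 44.8% to 94.4% for lower genes, with HFD library 10 the lowest of them and HFD library 1 the highest.

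**Figure D5:**
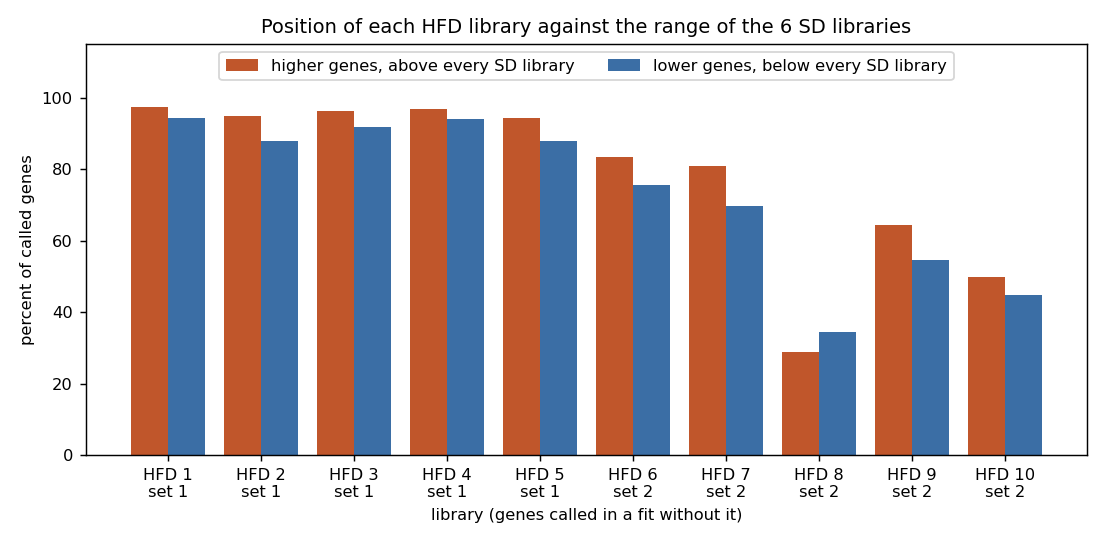
Percent of the genes called in a fit without the library that lay beyond the range of the 6 SD libraries in the called direction, for each HFD library, with the library set under its name. HFD library 8 has the shortest bars, 29.0% and 34.4%, and HFD libraries 1 to 5 of set 1 the tallest.

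The macrophage level of HFD library 8, a mean log2 CPM of 4.98, lay within the SD range of 4.13 to 5.08. HFD libraries 9 and 10 had 6.45 and 5.45, and HFD libraries 1 to 7 had 7.62 to 8.47. The widest gap between these levels, 1.17, divided HFD libraries 1 to 7 from HFD libraries 8 to 10, and no correlation with the macrophage level is given. In HFD library 8, 9 of 19 macrophage genes were above SD, among them Cd68 (75.6 CPM), but 2 of 16 lipid-associated macrophage genes and 0 of 31 cell cycle genes were. Resident macrophage genes were above SD in 6 of 8 cases, and the level of that list, 4.72, lay above the SD range of 3.11 to 4.39. Collagens were above SD in 4 of 18 cases and lysosomal genes in 13 of 36. Genes of other groups lay beyond SD in this library. Of 15 insulin signalling genes called lower without it, 11 were below SD in it, among them Insr (168 CPM) and Irs1 (8.84 CPM). Interferon response genes were above SD in 8 of 9 cases, and the list level of 4.83 was the highest of all 16 libraries. Endoplasmic reticulum stress genes were above SD in 9 of 17 cases, with Hspa5 at 472 CPM, and clock genes were below SD in 6 of 11. The level of the endoplasmic reticulum stress list, 6.24, nonetheless lay within the SD range of 5.94 to 6.44. It was below the other HFD libraries, at 6.33 to 6.82. Mature adipocyte genes were below SD in 1 of 16 and genes of the mitochondrial genome in 0 of 13. The labels used here give no body weight or other measure of the mouse, and what sets this library apart was not tested.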

How the data were processed

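RNA from epididymal white fat was sequenced from poly(A)-selected, strand-specific libraries, per the labels' protocols. The authors deposited raw read counts per gene and FPKM values made from the same libraries, per the file headers. The genome build is mm10 per the submitters' processing notes, but gene positions in the deposited files did not match that build, so none is given. The aligner and counter, and whether counting used strand, are not stated in the labels.

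Counts of 16 libraries were tested with edgeR 4.0.16 (quasi-likelihood F test, robust, TMM factors, genes kept by filterByExpr), with Benjamini-Hochberg adjustment over 18322 genes of 56748. Log2 CPM values used a prior count of 2. limma 3.58.1, DESeq2 1.42.0 and log2(FPKM + 1) or log2(FPKM + 0.1) served as alternatives. The edgeR step was tested on artificial counts of 10 against 6 libraries with 17877 genes. Known changes of 1.5-fold, 2-fold and 4-fold were put into 67, 67 and 66 genes, of which it recovered 19.4%, 41.8% and 72.7%. Far fewer genes were changed there than were called in the data. The adjusted p depends on that share, so these rates need not hold for the data. Promoter sequences are from RefSeq (GRCm38.p6).

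Members, gene lists (57 lists, 972 symbols) and tests were chosen with earlier results of these data known. Genes named are a panel of 20, up to 3 called members of each list with the smallest p in each direction, and the 12 largest called rises and falls whose mean reached 20 CPM in either group, leaving out predicted models and genes for which under 80% of either group's libraries lay beyond the median of the other. Other list members are given as examples chosen after their values were seen, as were the genes with the smallest p-values. The exact permutation tests were run in Python 3.11.15. Same-numbered SD and HFD libraries are not paired by the labels.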

Additional observations from a re-analysis of the deposited data

Results flagged for a closer look

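Of 164 groups of values (a gene, list or ratio in the 6 SD or the 10 HFD libraries), 14 held a library whose gap to the nearest other one was a large share of the group's range by Dixon's criterion, where chance alone gives about 1 in 20, or 8.2 of 164. In HFD library 8, Tnf was low at a log2 CPM of -1.50 (nearest 0.60), Col1a1 at 7.18 (9.25), the cholesterol synthesis list at a mean of 3.23 (4.14), the cell cycle list at 1.45 (2.94) and the matrix protease list at 4.02 (5.32), while the list of the mitochondrial genome was high at 9.97 (8.40). HFD library 1 was low for Ppargc1a, at -0.35 (0.95).

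Among the SD libraries, SD library 7 was low for Ppargc1a, at a log2 CPM of 2.00 (nearest 3.28), and for Ppargc1a relative to the mature adipocyte markers, at -8.78 (-7.63), and it was high for the collagen list at 6.99 (6.62). SD library 1 was low for Adrb3, at 8.60 (9.87), and for Adrb3 relative to the adipocyte markers, at -2.40 (-1.31), and was high for the ciliated epithelium list at 1.39 (-0.78). SD library 6 was high for the lipogenesis list at 7.75 (7.18). SD library 4, used only in the alternative that keeps it, held 1120.7 CPM of ciliated epithelium genes in sum, against 4.70 to 46.4 CPM in the other SD libraries, with Foxj1, the regulator of motile cilia, at 274 CPM.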

How the results depend on the processing

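The counts of 3975 higher and 2722 lower genes stayed within 1.5 times under the other scalings, filters, FPKM scales and DESeq2's Wald test, with SD library 4 kept, with 39 libraries in 1 fit, and without each library in turn (3174 to 4516 higher, 2123 to 3689 lower). They moved further to 6427 and 6492 with limma voom and quality weights, to 937 and 627 in set 2 alone, to 2588 and 1305 at an adjusted p under 0.01, and to 1708 and 421 when tested against a fold of 1.5. The lower count moved to 4228 with library set as a term and HFD library 8 left out. With the replicate number as a block, 5199 genes were higher and 4820 lower, but same-numbered libraries did not all deviate together (correlations of -0.23 to 0.37, and 1 of 6 numbers had its own partner as the best), so that they share only a number. For the ratios to adipocyte markers, log2(FPKM + 1) gave -0.25 for Irs1 and turned Ppargc1a to 0.34, and 5 reference genes gave -0.84 for Irs1 and -1.45 for Adrb3, with neither past the threshold. Without 1 library in turn, Irs1 ranged from -1.09 to -0.78, Adrb3 from -1.93 to -1.49 and Ppargc1a from -0.92 (past the threshold, without SD library 7) to -0.53.

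Of 9070 values of 275 genes under the other settings, 8534 kept direction and call, 454 lost the call (145 in set 2 alone), 58 gained it and 24 turned. Fasn turned to 0.036 (voom), 0.30 (both FPKM scales), 0.027 (SD library 4 kept), 0.18 (set as a term), 1.55 (set 1), 0.39 (block), 0.27 (set as a term without HFD library 8) and 0.62 (without SD library 6; -0.31 at the lowest with 1 library left out). Ucp1 turned to 0.14 (SD library 4 kept), 0.47 (set 2) and -0.40 to 0.26 (1 library left out). S100a9, -3.07 with all libraries, turned to 0.45 (set 1), 0.057 (block) and 0.49 (without SD library 6; -3.45 at the lowest with 1 library left out). Il6 turned to 0.47 in set 1 and Per2 to 0.062 in set 2. The causes were not tested. Relations to the macrophage level within HFD were not run, since a wide gap divides the levels and each set holds 5 HFD libraries. Depth was similar in all libraries, and the levels below 1 CPM rest on few counts.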

Other observations

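Glycolysis and hypoxia genes moved both ways on HFD, with 8 of 22 higher and 7 lower (without HFD library 8, 10 and 7). Pkm and Eno1, enzymes of lower glycolysis, were higher in every HFD library than in any SD library (Pkm SD 213 to 259 CPM, HFD 265 to 1179 CPM; Eno1 SD 278 to 423 CPM, HFD 457 to 841 CPM). Pfkfb3, which sets the flux through upper glycolysis, fell by 1.02, and Pdk1, the kinase that holds back pyruvate dehydrogenase, fell by 0.53. Of 20 immediate early genes, 7 fell and 2 rose, and 0 were called in set 2 alone. The count of 7 became 4 without any one of SD libraries 2 and 6 and HFD libraries 1, 4 and 5, and 2 without SD library 5. Atf3, a stress-induced transcription factor, rose by 2.60 (SD 12.5 to 77.9 CPM, HFD 59.2 to 362 CPM), while the nuclear receptor gene Nr4a3 fell by 1.82 (SD 9.34 to 37.9 CPM, HFD 2.25 to 19.1 CPM).

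Monocyte and dendritic cell genes rose in 6 of 15 cases and fell in 1, against 21.7% and 14.9% of all genes (without HFD library 8, 7 and 3, in set 2 alone, 1 and 0). Batf3, a transcription factor of cross-presenting dendritic cells, was higher in every HFD library (SD 2.20 to 4.58 CPM, HFD 4.87 to 11.1 CPM), and Zbtb46, which dendritic and endothelial cells express, fell by 1.06. Pdpn, podoplanin of lymphatic vessels and fibroblasts, rose by 1.63. Abcc9, a channel subunit of pericytes, was lower in every HFD library than in any SD library (SD 70.9 to 122 CPM, HFD 25.4 to 67.1 CPM). Pvalb, the calcium buffer parvalbumin, was called higher at low levels (SD 0 to 0.497 CPM, HFD 0.484 to 9.96 CPM), while Atp2a1, a calcium pump of fast muscle, was called lower (-2.25, adjusted p = 0.0117). Atp2a1 lost its call without SD library 1 (-1.54, adjusted p = 0.0646).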
